A study of Camellia sinensis with 12 samples.

Results

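Leaves of Kucha-6 (K6), a bitter Kucha tea genotype, were set against leaves of Qingxin 1 (QX1), a conventional variety of tea (Camellia sinensis). The comparison rests on 6 of the 12 libraries of the series, chosen by their genotype labels: 3 of K6 and 3 of QX1. Of the 42704 features listed per library, the 25918 with at least 1 FPKM in at least 3 of these 6 libraries were tested, 20848 of them annotated genes with a TEA identifier and 5070 unannotated loci with an XLOC identifier. FPKM is the number of sequenced fragments of a feature, scaled by its length and by the sequenced fragments of the library. The remaining libraries are 3 of the Kucha genotype Kucha-11 (K11) and 3 of the conventional variety Yinghong 9 (YH9). They serve below to place the K6 and QX1 levels. They were also tested as the other Kucha and conventional pair and entered fits over all 12 libraries. All 4 genotypes were untreated and grew in a single germplasm bank in Guangdong, and the labels give no plant age, leaf stage or harvest time.

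Tea leaves store purine alkaloids, which are built from xanthosine by successive methylation through theobromine to caffeine. Kucha is known for carrying the route further, from caffeine to theacrine, a bitter tetramethyluric acid that conventional teas hold in small amounts or lack. The series was designed around genotypes of contrasting theacrine content. The files do not pair TEA identifiers with gene names, and none of the identifiers was found in the gene table at hand, so neither the methyltransferases of that route nor the markers of leaf tissue could be looked up. The features are therefore described by identifier, class, level and, for the unannotated loci, position.

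The tissue label and source name say leaf, although the extraction text speaks of retinas. The same text describes ribosomal RNA depletion and a strand-keeping second-strand synthesis, so both steps are uncertain for these libraries. The labels do not say whether the 3 replicates of a genotype are separate plants, so the p-values rest on a spread between libraries that may be only technical. With 1 K6 and 1 QX1 genotype, a difference belongs to these accessions and cannot be assigned to bitterness or theacrine. In bulk leaf, fewer cells of a type and less RNA per cell cannot be told apart.

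The FPKM values of a library summed to 629355 to 633153 in K6 and 635896 to 653908 in QX1, and 24728 to 25228 features reached 1 FPKM in K6, against 24798 to 25051 in QX1. The files hold no counts, so absolute depth is not known. Low values gave relative depths of 1.08, 1 and 1.01 in K6 and of 1.27, 1.17 and 0.953 in QX1, in units of K6 replicate 2. Pearson correlations of log2(FPKM + 1) averaged 0.973 within K6 (3 pairs) and 0.979 within QX1 (3 pairs), against 0.881 across the genotypes (9 pairs), as a description over shared features.

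K6 replicate 2 stood apart from the other K6 libraries, and not only in a small group of features. Its mean correlation with the QX1 libraries was 0.865, against 0.892 and 0.888 for K6 replicates 1 and 3. It also listed more features at 0, 10923 against 9778 and 10241. In that library, 50 features were at or below 10% of the lower of the other K6 libraries, both of which had at least 5 FPKM. The same count was 2 in K6 replicate 1, 6 in K6 replicate 3, 1, 3 and 0 in the QX1 libraries, and 0 to 4 in the K11 and YH9 libraries. Of the 50 features, 36 were annotated genes and 14 were unannotated loci, and 20 were listed at 0 in K6 replicate 2. Both thresholds were set after the data were seen. At 20% in place of 10% the count was 69 in K6 replicate 2 and 0 to 7 in the other 11 libraries. Results that rest on these features are given below with and without that library.

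K6 and QX1 leaves differed in about 1 tested feature in 8. With limma on log2(FPKM + 1), 3309 of the 25918 features (12.8%) were called, that is, passed a Benjamini-Hochberg adjusted p of 0.05 with a log2 difference (K6 minus QX1) of 1 or more in either direction. Without K6 replicate 2, 3250 features were called, 2992 of them among these 3309. The calls were balanced: 1636 features (6.31%) were higher in K6 and 1673 (6.45%) were lower in K6. Over all tested features the log2 differences had a median of 0.01, against 1.47 in the higher set and -1.48 in the lower set. The absolute log2 difference was below 2 in 1271 features of the higher and 1267 of the lower set. A log2 difference of 3 or more was seen for 110 features higher in K6 and for 105 lower in K6. For features at low levels this scale gives a smaller difference than the ratio of the levels, and the medians of the called sets hold only for features that passed the fold threshold and include features listed at 0 in a genotype, whose difference depends on the added 1.

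The adjusted p alone was below 0.05 for 9014 features (34.8%), so 5705 features passed that threshold with a difference below 1 on log2(FPKM + 1). Without overlap between the 3 K6 and the 3 QX1 libraries were 12457 features (48.1%). Of the called features, 3292 showed no overlap, 1629 of them higher and 1663 lower in K6, and in the other 17 the ranges overlapped. The called features carried a limited share of the summed FPKM. The higher set made up 6.46%, 7.09% and 6.47% of it in K6 replicates 1, 2 and 3, against 2.27%, 2.02% and 2.28% in the QX1 libraries. The lower set made up 3.21%, 2.77% and 3.62% in K6, against 8.44%, 8.65% and 8.60% in QX1.

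**Figure D1:**
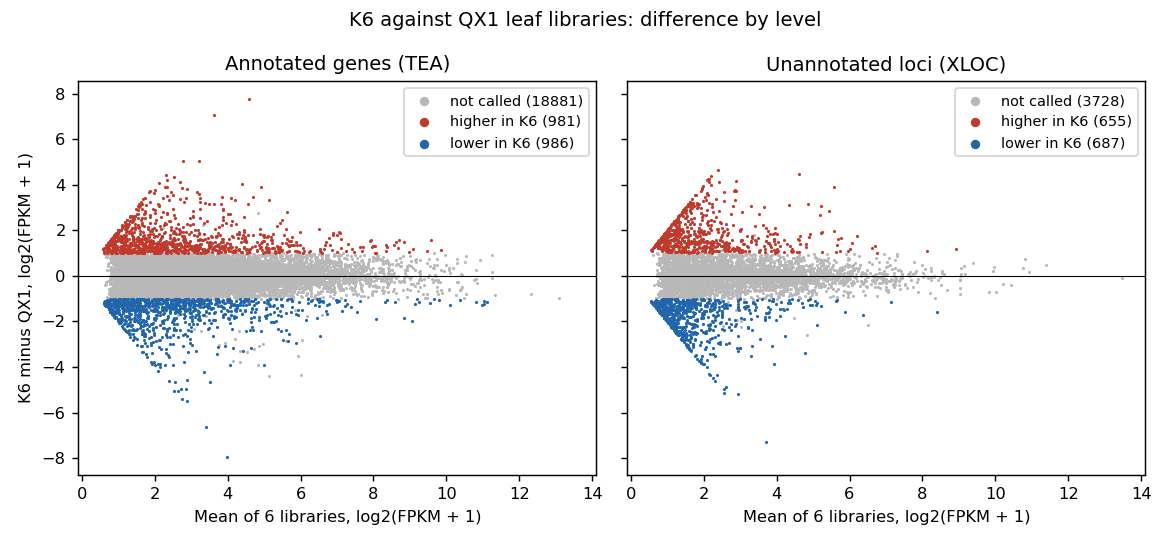
Each point is 1 of the 25918 tested features, annotated genes on the left and unannotated loci on the right: the horizontal axis is the mean of log2(FPKM + 1) over the 6 libraries, and the vertical axis is the log2 difference, K6 minus QX1. Red points were called higher in K6 (981 genes, 655 loci), blue points lower in K6 (986 genes, 687 loci) and grey points were not called. The widest differences lie at low and middle levels.

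In many called features the genotype on the low side averaged under 1 FPKM. The higher set had a median level of 6.36 FPKM in K6 and 1.11 FPKM in QX1, and the QX1 mean was under 1 FPKM for 780 of its 1636 features. The lower set mirrored this, with a median of 0.95 FPKM in K6 and 5.98 FPKM in QX1, and a K6 mean under 1 FPKM for 849 of its 1673 features. Part of this follows from the filter. It was passed through K6 alone by 833 features, of which 636 were called, and through QX1 alone by 847 features, of which 675 were called. At the edge of the filter, 424 features had a third-highest value of 1.00 to 1.09 FPKM and 67 of them were called, while 464 features at 0.90 to 0.99 FPKM were just outside.

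The share called was larger among unannotated loci than among annotated genes. Of the 5070 unannotated loci, 1342 (26.5%) were called, 655 higher and 687 lower in K6. Of the 20848 annotated genes, 1967 (9.43%) were called, 981 higher and 986 lower in K6. The called loci also differed by more: their median log2 difference was 1.59 for rises and -1.59 for falls, against 1.39 and -1.39 for annotated genes. Absolute log2 differences of 3 or more were found in 56 loci higher and 52 loci lower in K6, and in 54 annotated genes higher and 53 lower. The 2 classes were not tested against each other, and their shares include features that passed the filter through 1 genotype alone.

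The share called fell with the level in unannotated loci, while in annotated genes it was lowest at middle levels. With the mean FPKM of the 6 libraries under 3, 36.5% of the loci (712 of 1952) and 16.0% of the annotated genes (703 of 4406) were called. Between 3 and 10 FPKM the shares were 27.8% of loci and 9.58% of genes, and between 10 and 30 FPKM they were 13.6% of loci and 5.26% of genes. Between 30 and 100 FPKM, 10.2% of loci (39 of 381) and 7.15% of genes (169 of 2364) were called. At 100 FPKM and more the order of the classes turned, with 4.90% of loci (7 of 143) and 11.2% of genes (84 of 751). Level classes use all 6 libraries, so a feature present in 1 genotype only falls into a lower class than a feature of the same peak level in both. The filter was passed through K6 alone by 833 features (636 called) and through QX1 alone by 847 (675 called). Features of this kind can have low means, so the shares at low levels may follow in part from the filter.

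**Figure D2:**
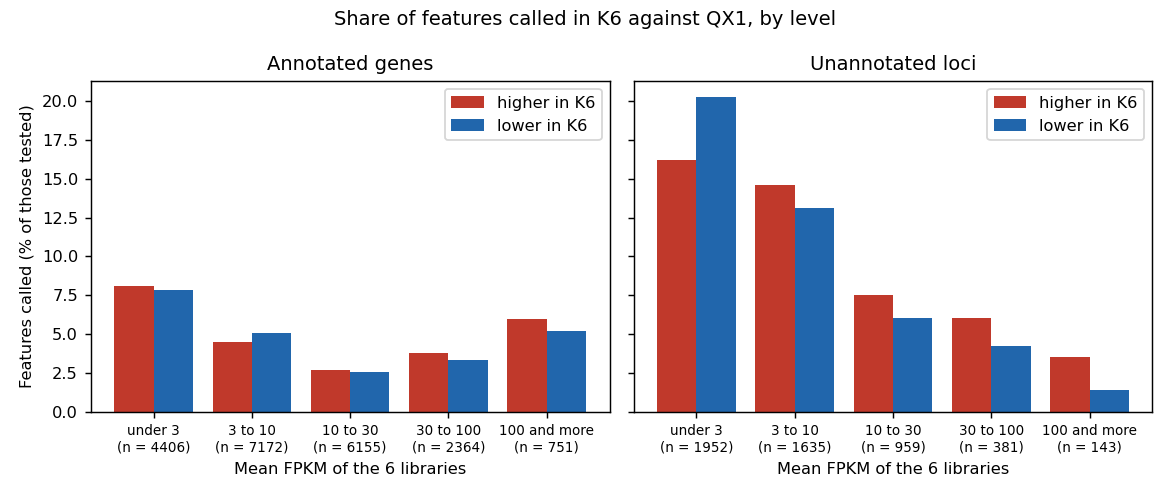
Percent of tested features called in K6 against QX1 in 5 classes of the mean FPKM over the 6 libraries, for annotated genes (left) and unannotated loci (right), with 1 bar for features higher in K6 and 1 for features lower in K6. Summed over both bars, loci run from 36.5% under 3 FPKM to 4.90% at 100 FPKM and more, and annotated genes from 16.0% through 5.26% at 10 to 30 FPKM to 11.2%.

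Short loci were called more often than long ones. The listed length of an unannotated locus is its genomic span, and the median span was 2822.5 bases for called and 3683 bases for all tested loci. Of the loci spanning under 2 kb, 34.1% (481 of 1411) were called, and of those spanning 2 to 5 kb, 28.5% (476 of 1669). Loci of 5 to 10 kb were called in 18.1% of cases (174 of 959) and loci of 10 kb and more in 20.5% (211 of 1031). Level moved with span: the median level was 2.72 FPKM in the shortest and 7.75 FPKM in the longest class, and its part in the shares was not tested.

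Among annotated genes, the named ones are those with the 2 greatest rises and the 2 greatest falls on log2(FPKM + 1) among the called genes without overlap. Where a genotype is near 0, the size of the difference is set largely by the added 1, and with 0.1 added in its place the values below are larger. TEA009099.1 had 285.31, 513.48 and 293.60 FPKM in K6 replicates 1, 2 and 3, against 1.21, 0.65 and 0.16 FPKM in QX1. It was abundant in every K6 library and near 0 in every QX1 library, and the log2 difference was 7.76 ± 0.29 (SE, n = 3 each; limma adjusted p = 1.63e-06). K11 resembled K6 here with 726.01, 544.41 and 678.00 FPKM, and YH9 resembled QX1 with 0, 0.30 and 0.19 FPKM. The K11 minus YH9 log2 difference was 9.12 ± 0.14 (limma adjusted p = 9.41e-09). Both Kucha genotypes thus had high levels of this gene and both conventional varieties had levels near 0.

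TEA010054.1 had 139.41, 151.91 and 134.23 FPKM in K6, against 0.18, 0 and 0 FPKM in QX1. The groups did not overlap, and the log2 difference was 7.08 ± 0.12 (SE, n = 3 each; limma adjusted p = 2.13e-09). K11 had 220.96, 219.10 and 225.07 FPKM, against 9.93, 14.66 and 8.72 FPKM in YH9. YH9 thus held a low level of a gene that was at or near 0 in QX1, and the K11 minus YH9 log2 difference was 4.23 ± 0.16 (limma adjusted p = 3.45e-07). This gene too was highest in the Kucha genotypes, K11 above K6 in every library.

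TEA030850.1 was an on/off gene. It was listed at 0 in all 3 K6 libraries, against 275.66, 202.43 and 264.72 FPKM in QX1 (limma adjusted p = 2.13e-09, n = 3 each), and no fold is given against a group at 0. K11 was also listed at 0 in every library, and YH9 had only 0.11, 0 and 0.37 FPKM. QX1 was thus the sole genotype of the 4 with an appreciable level. The K11 minus YH9 log2 difference was -0.20 ± 0.14 and was not called (limma adjusted p = 0.25).

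TEA014508.1 followed the same pattern, with 0, 0 and 0.16 FPKM in K6, against 105.44, 106.75 and 101.61 FPKM in QX1. The QX1 libraries lay within a narrow range and far above K6, and the log2 difference was -6.65 ± 0.11 (SE, n = 3 each; limma adjusted p = 2.45e-09). K11 had 1.09, 0.07 and 0 FPKM and YH9 was listed at 0 in all 3 libraries. Both named falls were therefore genes high in QX1 alone, while both named rises were shared with K11.

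**Figure D3:**
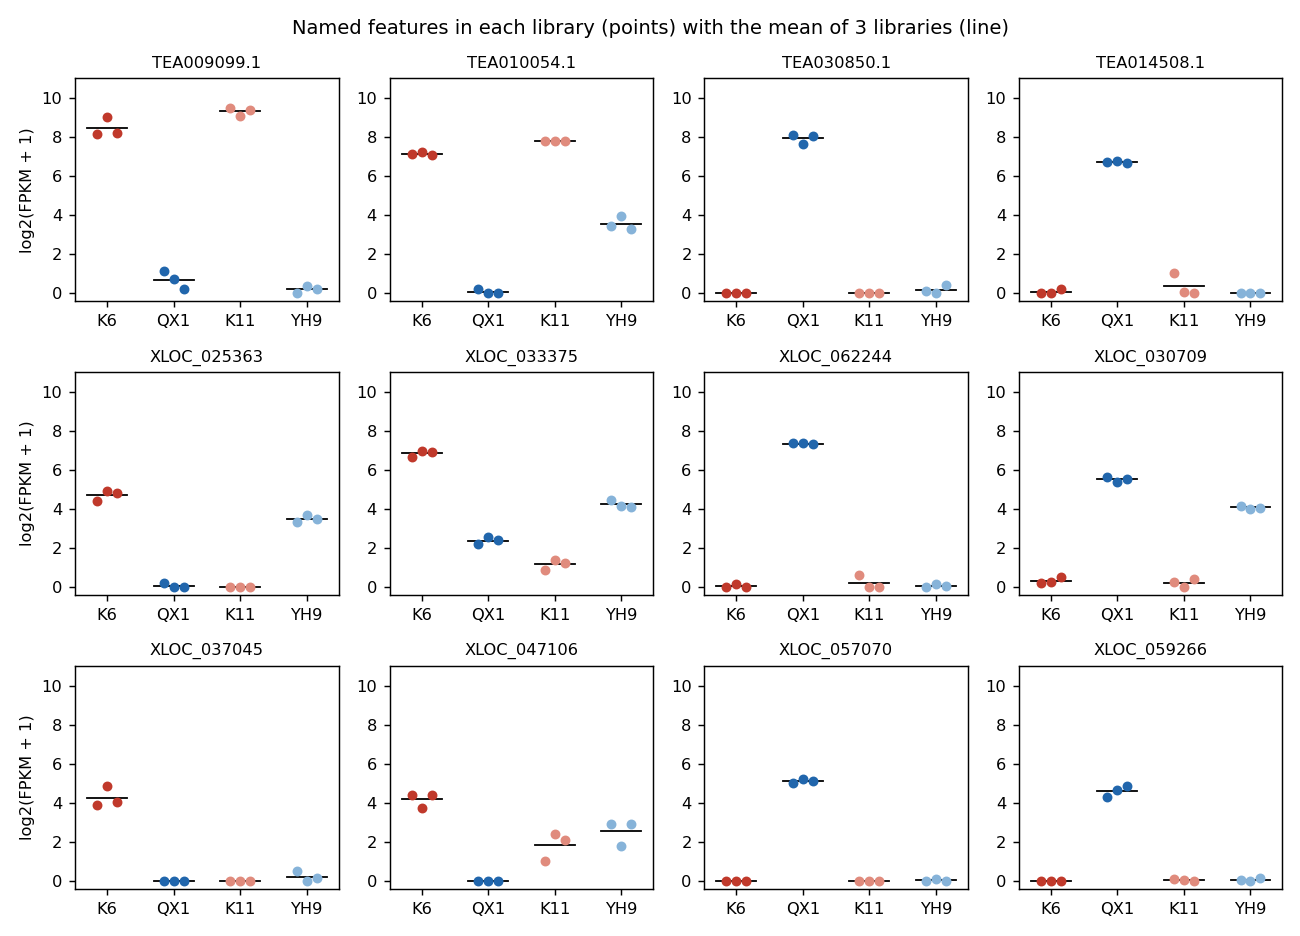
Level, as log2(FPKM + 1), of the 12 named features in K6, QX1, K11 and YH9, with each library as 1 point and the mean of the 3 libraries as a line. TEA009099.1 and TEA010054.1 are high in K6 and K11, whereas TEA030850.1 (202.43 to 275.66 FPKM) and TEA014508.1 (101.61 to 106.75 FPKM) are high in QX1 alone.

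Taken over both classes together, abundant features were called about as often as features in general. The classes differed in this: abundant loci were called in 4.90% of cases against 26.5% of all loci. Abundant annotated genes were called in 11.2% of cases against 9.43% of all genes. Of 894 tested features averaging 100 FPKM or more over the 6 libraries, 91 (10.2%) were called, 50 higher and 41 lower in K6. Annotated genes made up 84 of them, and 87 of the 91 had an absolute log2 difference below 2. In the other 4 it was 2 or more.

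The 10 most abundant called features, looked at after their values were seen, were all annotated genes. Of these, 8 were lower in K6, with log2 differences of -1.28 to -1.06, and 2 were higher, with 1.15 and 1.56. The most abundant had 1435.87, 1300.2 and 1742.95 FPKM in K6, against 3120.63, 3534.26 and 3300.78 FPKM in QX1. Its level was lower in every K6 library than in any QX1 library, with a log2 difference of -1.16 ± 0.12 (SE, n = 3 each; limma adjusted p = 0.000102). It had 1602.94 to 1797.84 FPKM in K11, against 386.45 to 489.74 FPKM in YH9, so the other conventional variety was lower than both Kucha genotypes.

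Together these 8 lower genes took 1.39%, 1.23% and 1.74% of the summed FPKM in K6, against 3.09%, 3.27% and 3.19% in QX1. K11 libraries gave them 2.16%, 2.28% and 1.97%, against 0.428%, 0.483% and 0.431% in YH9. By this sum the order was QX1, K11, K6, YH9, and the ranges of the shares did not overlap between neighbouring genotypes. Single genes departed from it. The gene ranked 7 by mean level had 719.5, 622.79 and 791.17 FPKM in K6, 1739.67, 1276.89 and 2301.51 FPKM in QX1, and 2816.68, 3088.88 and 2612.85 FPKM in K11, where it was above QX1. In the genes ranked 4 and 6 the K11 mean lay below the K6 mean. In all 8 genes K6 replicate 2 was the lowest and K6 replicate 3 the highest of the K6 libraries. Among the 41 abundant features lower in K6, replicate 2 was the lowest K6 library in 27 and replicate 3 the highest in 24. Among the 50 higher in K6, replicate 2 was the highest in 34. A shift of a whole library and a joint movement of these genes cannot be told apart here. Over the 41 abundant features lower in K6, the YH9 mean lay below the K6 mean in 30, and the K11 mean lay below the QX1 mean in 39.

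The 2 higher genes among these 10 did not share a pattern across genotypes. The first had 1436.76, 1314.8 and 1383.09 FPKM in K6, against 462.45, 607.7 and 844.82 FPKM in QX1. QX1 was the more variable group here, and both K11 (81.03 to 174.1 FPKM) and YH9 (205.45 to 361.74 FPKM) lay below it. The other had 1385.37, 1267.73 and 1323.54 FPKM in K6, against 350.5, 425.8 and 601.04 FPKM in QX1. It was nearly absent from K11 (2.88 to 5.44 FPKM) but high in YH9 (770.69 to 1411.08 FPKM), so it separated the Kucha genotypes from each other more than from the conventional ones. Of the 50 abundant features higher in K6, the K11 mean lay below the K6 mean in 45 and the YH9 mean in 36.

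**Figure D4:**
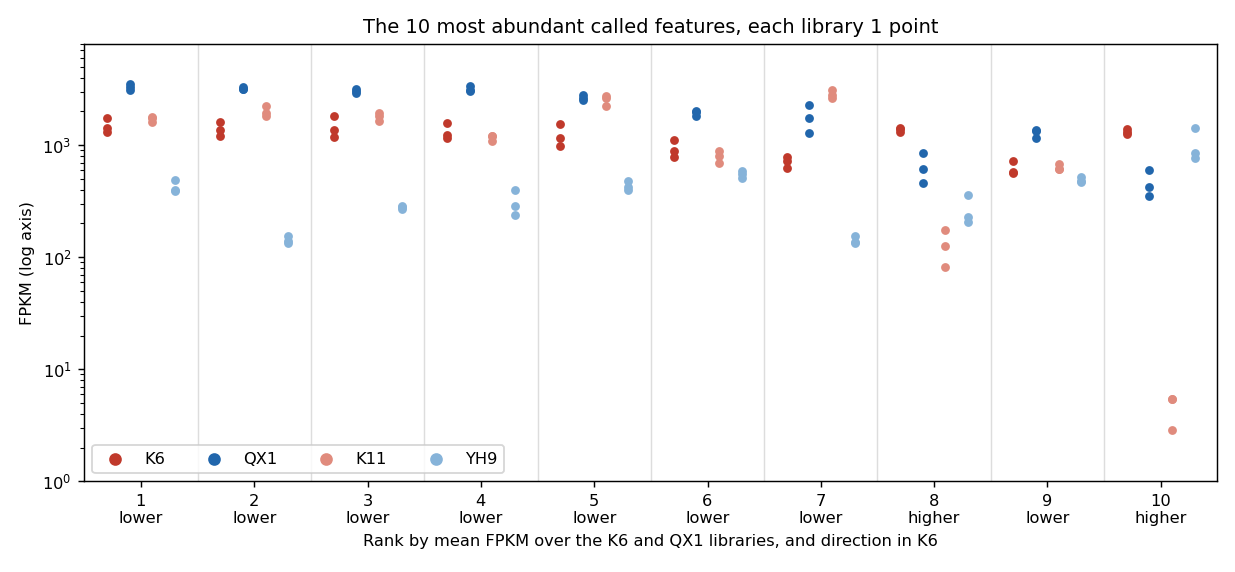
FPKM on a log axis of the 10 most abundant called features, ranked by their mean over the 6 libraries, with 1 point per library of K6, QX1, K11 and YH9. In 8 of the 10 the K6 points lie below the QX1 points, and the YH9 points lie lowest in the most abundant ones, at 386.45 to 489.74 FPKM for the first.

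The abundant called features included 7 unannotated loci, 5 higher and 2 lower in K6. XLOC_005915 had 702.49, 729.89 and 742.57 FPKM in K6, against 352, 261.54 and 348.56 FPKM in QX1, a log2 difference of 1.19. XLOC_014342 ran the other way with 186.85, 224.38 and 174.16 FPKM in K6, against 493.33, 635.63 and 610.22 FPKM in QX1, a log2 difference of -1.57. Neither pair of groups overlapped. These loci were singled out after their values were seen.

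The unannotated loci with the greatest differences on log2(FPKM + 1) lie on separate scaffolds of an assembly, the build of which the sources used here do not give. The files give each locus a span without exons, so whether it is exonic or intronic to another gene is not known. XLOC_025363, on scaffold 2372, plus strand, positions 1395029 to 1396932, had 20.05, 29.03 and 27.58 FPKM in K6, against 0.15, 0 and 0 FPKM in QX1. The K6 libraries lay far above QX1, and the log2 difference was 4.65 ± 0.18 (SE, n = 3 each; limma adjusted p = 5.9e-07). K11 was listed at 0 in all 3 libraries, against 9.11, 12.20 and 10.09 FPKM in YH9, so the locus was present in 1 Kucha and 1 conventional genotype. With a pseudocount of 0.1 the log2 difference was 7.54.

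XLOC_033375, on scaffold 2990, minus strand, positions 712528 to 714190, had 101.29, 123.03 and 119.39 FPKM in K6, against 3.62, 4.85 and 4.36 FPKM in QX1. Its log2 difference was 4.45 ± 0.12 (SE, n = 3 each; limma adjusted p = 6.5e-08), with no overlap. K11 had 0.85, 1.59 and 1.37 FPKM, against 21.28, 16.73 and 15.97 FPKM in YH9. The K11 minus YH9 log2 difference was -3.07 (limma adjusted p = 2.18e-06), opposite in sign to that of K6 minus QX1. Both loci thus ran the other way in the other Kucha and conventional pair. With a pseudocount of 0.1 the log2 difference of XLOC_033375 was 4.72, below that of other loci, so its place among the greatest rises depends on the pseudocount.

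XLOC_062244, on scaffold 747, plus strand, positions 1425639 to 1428159, had 0, 0.11 and 0 FPKM in K6, against 163.60, 165.04 and 157.32 FPKM in QX1. The log2 difference was -7.30 ± 0.10 (SE, n = 3 each; limma adjusted p = 1.49e-09). K11 had 0.55, 0 and 0 FPKM and YH9 had 0, 0.14 and 0.06 FPKM, so this locus too was high in QX1 alone. XLOC_030709, on scaffold 27998, minus strand, positions 1 to 11021, had 0.17, 0.21 and 0.45 FPKM in K6, against 48.96, 40.16 and 45.99 FPKM in QX1. It fell in both Kucha genotypes: the log2 difference was -5.17 ± 0.14 for K6 minus QX1 (SE, n = 3 each; limma adjusted p = 8.32e-08) and -3.86 ± 0.15 for K11 minus YH9 (limma adjusted p = 4.15e-07). K11 had 0.19, 0 and 0.32 FPKM, against 16.91, 15.29 and 15.65 FPKM in YH9.

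Some features were present in all 3 libraries of 1 genotype at 1 FPKM or more and listed at 0 in all 3 of the other. Such on/off features numbered 131 present in K6 and 171 present in QX1, together 302, or 9.13% of all called features. All 302 were called, which the definition nearly fixes, so this is no support for them. A listed 0 may be a level below the rounding or a failed estimate, and at the low levels of most of these features absence is not shown. Unannotated loci made up 97 of the 131 features present in K6 (74.0%) and 121 of the 171 present in QX1 (70.8%).

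Levels of the on/off features were low. Those present in K6 had a median of 2.69 FPKM (range 1.17 to 18.9), 68 of them under 3 FPKM and 7 at 10 FPKM or more. Those present in QX1 had a median of 2.73 FPKM (range 1.15 to 248), 91 of them under 3 FPKM and 15 at 10 FPKM or more. The highest was TEA030850.1, described above, and the second highest had a mean of 34.1 FPKM. With presence set at 5 FPKM, 26 features present in K6 and 28 present in QX1 were left, and at 0.5 FPKM there were 205 present in K6 and 253 present in QX1. Without K6 replicate 2 the counts were 168 present in K6 and 190 present in QX1.

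The on/off locus with the highest level in K6 was XLOC_037045, on scaffold 3346, minus strand, positions 1708310 to 1709571. It had 13.64, 27.71 and 15.28 FPKM in K6 and was listed at 0 in all QX1 libraries (limma adjusted p = 4.71e-06, n = 3 each). K11 was listed at 0 as well, and YH9 had 0.42, 0 and 0.12 FPKM, so K6 alone held an appreciable level. XLOC_047106, on scaffold 435, minus strand, positions 2024585 to 2028059, had 20.50, 12.21 and 20.17 FPKM in K6 and was listed at 0 in QX1 (limma adjusted p = 2.2e-06, n = 3 each). This locus was also detected in K11, at 1.02, 4.35 and 3.31 FPKM, and in YH9, at 6.60, 2.42 and 6.52 FPKM.

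In the other direction, XLOC_057070, on scaffold 6218, minus strand, positions 125038 to 127182, was listed at 0 in K6, against 31.27, 36.65 and 34.37 FPKM in QX1 (limma adjusted p = 6.5e-08, n = 3 each). K11 was at 0 too and YH9 had 0, 0.08 and 0 FPKM. XLOC_059266, on scaffold 670, minus strand, positions 1028546 to 1032606, was listed at 0 in K6, against 18.81, 24.18 and 27.61 FPKM in QX1 (limma adjusted p = 5.27e-07, n = 3 each). K11 and YH9 had at most 0.08 and 0.12 FPKM of it. Both loci were thus high in QX1 alone among the 4 genotypes.

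The annotated on/off genes were fewer, 34 present in K6 and 50 present in QX1. The highest of those present in K6 had 10.97, 13.99 and 11.72 FPKM there and was listed at 0 in all 9 other libraries. The next had 11.02, 13.73 and 11.38 FPKM in K6, 0 in QX1 and at most 0.04 FPKM in K11 and YH9. The gene ranked 3 had 10.86, 10.64 and 6.86 FPKM in K6 and 0 in QX1. It was present in K11 at 17.47, 19.89 and 20.56 FPKM and low in YH9 at 1.07, 0.97 and 0.9 FPKM. After TEA030850.1, the highest annotated genes present in QX1 had 36.11, 29.49 and 31.86 FPKM and 17.27, 14.72 and 18.94 FPKM, with 0 in K6. These genes were picked by level after the values were seen.

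By these limits the on/off state seldom followed the division into Kucha and conventional genotypes. In many features, however, K11 or YH9 lay between the limits, so the state there was not defined. Of those present in K6, K11 was present in 22.1% and YH9 listed at 0 in 40.5%, with 34.4% and 42.7% between the limits. Of those present in QX1, K11 was listed at 0 in 48.0% and YH9 present in 16.4%, with 32.7% and 40.4% between. Of the 131 features present in K6 and at 0 in QX1, 2 were present in all K11 libraries and at 0 in all YH9 libraries, and 5 showed the opposite. In 38 of them, K11 and YH9 were both at 0, so that K6 was the only genotype in which the feature was listed above 0. Of the 171 features present in QX1 and at 0 in K6, 10 were at 0 in K11 and present in YH9, and 11 showed the opposite. In 42, QX1 was the only genotype in which the feature was listed above 0. The remainder were present in both other genotypes (9 and 12) or had at least 1 genotype between the limits. The 38 features listed above 0 in K6 alone (9 annotated, 29 unannotated) had means of 1.37 to 14.6 FPKM. The 42 listed above 0 in QX1 alone (14 annotated, 28 unannotated) had means of 1.31 to 11.9 FPKM.

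Neighbouring unannotated loci tended to differ in the same direction. Among pairs of adjacent tested loci on 1 scaffold that overlapped or lay under 10 kb apart, 538 in all, both loci were called in 73, and in 66 of these the direction was the same: 29 pairs higher and 37 lower in K6. In 7 pairs the directions were opposite. With 10 to 100 kb between the loci, both were called in 42 of 619 pairs, and 20 of these ran the same way. At 100 kb and more, both were called in 112 of 1810 pairs, and 60 of these ran the same way. The correlation of the log2 differences of paired loci was 0.487 under 10 kb, -0.01 at 10 to 100 kb and 0.02 at 100 kb and more, as a description across loci.

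Within the near pairs the correlation varied with distance. It was 0.451 for 176 overlapping pairs, 0.709 for 117 pairs under 1 kb apart and 0.381 for 245 pairs at 1 to 10 kb. Pairs on the same strand made up 350 of the 538 near pairs and 50 of the 66 that ran the same way. Close loci may be pieces of 1 transcript, and the sources used here do not say whether counting used the strand, so reads of overlapping loci on opposite strands cannot be told apart. Neither was tested.

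**Figure D5:**
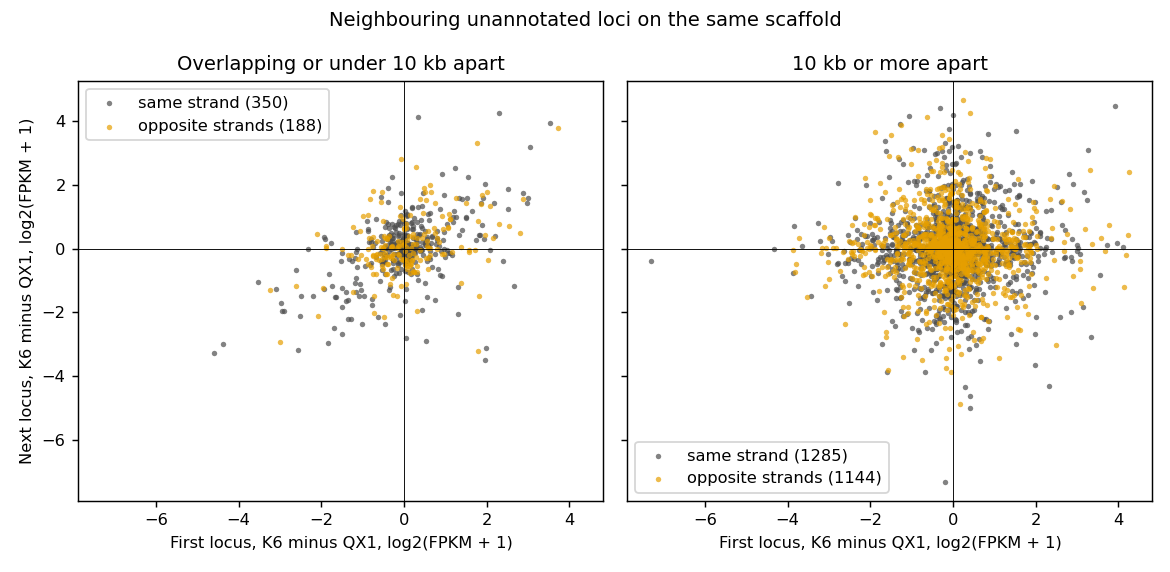
Log2 difference, K6 minus QX1, of 1 unannotated locus against that of its neighbour on the scaffold, for the 538 pairs that overlap or lie under 10 kb apart (left) and for pairs 10 kb or more apart (right), coloured by strand. The near pairs spread along the rising diagonal (correlation 0.487), while the far pairs spread evenly over the 4 quadrants (-0.01 at 10 to 100 kb, 0.02 at 100 kb and more).

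The longest runs of called neighbours were both lower in K6. On scaffold 3106, minus strand, positions 243752 to 287068, 5 adjacent loci fell with log2 differences of -4.37 to -1.48. Their levels were at most 1.14, 1.14 and 1.18 FPKM in K6 replicates 1, 2 and 3, against maxima of 16.57, 18.61 and 24.71 FPKM in QX1. The QX1 minima were only 1.8, 1.39 and 1.48 FPKM, close to the filter. On scaffold 4151, plus strand, positions 27681 to 167714, 4 adjacent loci fell with log2 differences of -2.95 to -1.49. The highest of them reached 2.22, 1.03 and 2.13 FPKM in K6, against 13.32, 20.81 and 18.02 FPKM in QX1, where the minima were 3.16, 3.76 and 2.17 FPKM. On/off loci shared scaffolds in part. Of the 97 loci present in K6, 17 lay on 8 scaffolds that held another such locus, as did 8 of the 121 present in QX1 on 3 scaffolds. How often tested loci in general share a scaffold is not given here, so these counts do not show clustering. These runs were found after the values were seen.

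K11 and YH9 share no library with the comparison of K6 and QX1 and form the other Kucha and conventional pair. Of the 25918 features, 9.33% were called higher in K11 than in YH9 and 11.6% lower. Of the 1636 features higher in K6 than in QX1, 266 (16.3%) were also higher in K11 than in YH9, but 360 (22.0%) were lower, and 1010 were not called. Of the 1673 features lower in K6, 297 (17.8%) were also lower in K11 and 290 (17.3%) were higher. The called features were thus called in the other pair more often than the background in both directions, in sum 563 the same way and 650 the opposite way. Median differences of the 266 shared rises were 1.66 for K6 minus QX1 and 1.68 for K11 minus YH9, and those of the 297 shared falls were -1.50 and -1.80.

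Opposite calls outnumbered same-way calls among annotated genes and not among loci. Among annotated genes higher in K6, 150 were higher and 247 lower in K11 than in YH9, whereas among loci higher in K6, 116 were higher and 113 lower. Among annotated genes lower in K6, 163 were lower and 182 higher in K11, and among loci 134 were lower and 108 higher. The shares of all tested genes and of all tested loci called in K11 against YH9 are not given here, so these counts lack a background by class. Over both classes, calls lower in K11 (11.6%) were more frequent than calls higher in K11 (9.33%). Whether the classes differ in this was not tested.

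The difference between the pairs was tested with a limma contrast over all 12 libraries, (K6 minus QX1) minus (K11 minus YH9). Its adjusted p was below 0.05 for 53.1% of all tested features, for 1372 of the 1636 features higher in K6 (83.9%) and for 1378 of the 1673 lower in K6 (82.4%). In 1312 and 1294 of these, K6 minus QX1 lay further in its own direction, and in 60 and 84, K11 minus YH9 did. The features were chosen for a large K6 minus QX1 difference, so the first counts follow in part from that choice and are a description.

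Setting the mean level of K11 and YH9 against the midpoint between K6 and QX1 gave another view. Of the features higher in K6, 251 (15.3%) had K11 nearer to K6 and YH9 nearer to QX1, while 331 (20.2%) had the opposite. In 590 (36.1%) both other genotypes lay nearer to QX1, leaving K6 alone on the high side, and in 464 (28.4%) both lay nearer to K6. Of the features lower in K6, 270 (16.1%) had K11 with K6 and YH9 with QX1, and 294 (17.6%) had the opposite. Both lay nearer to K6 in 743 (44.4%), leaving QX1 alone on the high side, and nearer to QX1 in 366 (21.9%). In both sets the most frequent pattern was a single genotype with a high level. The features were chosen for a large K6 minus QX1 difference, and this pattern may follow in part from that choice. Shares of the patterns over all tested features are not given here, so these are a description.

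Most features with a large difference that was not called had the wider spread in K6. An absolute log2 difference of at least 1 with an adjusted p of 0.05 or more was found for 100 features, 76 with a negative and 24 with a positive difference. The spread was larger in K6 than in QX1 in 84 of them, and 33 were among the features low in K6 replicate 2 alone. Of those features, 44 were tested. With all 6 libraries 2 were called, both lower in K6, and without K6 replicate 2, 26 were called, 18 lower and 8 higher. Over all 25918 tested features, 3309 (12.8%) were called with all 6 libraries and 3250 without K6 replicate 2. The 44 had been chosen for a low value in that library, so their rise in calls follows in part from that choice. QX1 had at least 5 FPKM of 33 of the 50 in all its libraries, K11 of 18 and YH9 of 21.

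The clearest cases, named after their values were seen, were the 2 features at 0 in 1 library and at 20 FPKM or more in the other 5. TEA026520.1 had 50.59, 0 and 54.57 FPKM in K6 replicates 1, 2 and 3, against 317.22, 242.07 and 307.72 FPKM in QX1. The log2 difference was -4.34 ± 1.83 and was not called (SE, n = 3 each; limma adjusted p = 0.147), while without K6 replicate 2 it was -2.43 ± 0.13 (limma adjusted p = 9.24e-06). TEA004602.1 had 48.66, 0 and 25.91 FPKM in K6, against 72.06, 113.5 and 79.19 FPKM in QX1. It gave -2.99 ± 1.68 with all libraries (limma adjusted p = 0.251) and -1.26 ± 0.26 without K6 replicate 2 (limma adjusted p = 0.00738). Both genes were detected in every K11 and YH9 library, and K6 replicate 2 was the only library of the 12 listed at 0.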

How the data were processed

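RNA of leaves was sequenced, with 1 table per library. The values are FPKM with 2 decimals, per the file headers, 3 libraries per genotype. Reads were handled with Bowtie2 2.2.8 and TopHat2 2.1.1, per the submitters' processing notes. How FPKM was computed, from which build and annotation and with which filter is not given in these sources. Count tables were not used here, so depth is unknown. Relative depth came from ratios of low values (0.2 to 1 FPKM). Of the features above 0 in either of a pair of K6 or of QX1 replicates, at most 1.32% had the same value to 2 decimals in both, so none of these libraries was a copy.

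Tests used limma 3.58.1 (R 4.3.3; trended, robust prior, no covariates) on log2(FPKM + 1), fitted to the 6 K6 and QX1 libraries and, for the other pair, to the K11 and YH9 libraries. Features needed at least 1 FPKM in at least 3 of the 6 libraries. A call needed a Benjamini-Hochberg adjusted p below 0.05 over all 25918 features and a log2 difference of 1 or more in size. The script was checked on simulated data. Named were the 2 annotated genes and 2 loci with the greatest rise and fall without overlap, and the 2 on/off loci with the highest mean on each side; others are marked in the text. Pathway and leaf marker lists could not be tested, since 0 identifiers matched among the 80110 genes of the reference table. Features, lists and tests were chosen with earlier results of these data known. As alternatives, a pseudocount of 0.1, the absence of a filter, a 5 FPKM filter, quantile and trimmed-mean (TMM) scaling, a replicate block, a fit over all 12 libraries, a plain prior, other on/off limits and leaving out each library were tried. Near-identical gene copies can share reads, and how such reads were counted is not stated.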

Additional observations from a re-analysis of the deposited data

Results flagged for a closer look

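The 12 named features had been chosen for the size of their K6 minus QX1 difference or their on/off level. In all 12 that difference differed from the K11 minus YH9 difference in the limma contrast over all 12 libraries (n = 3 per genotype), at a Benjamini-Hochberg adjusted p below 0.05. This follows in part from that choice, and it held for 53.1% of all tested features. Differences of differences are on the log2(FPKM + 1) scale, and those of features listed at 0 in a genotype depend on the added 1 and are no fold.

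In 3 features both pairs were called in the same direction and the sizes differed. TEA009099.1 had a difference of differences of -1.36 ± 0.35 (SE; limma adjusted p = 0.00637), the rise being greater in K11. For XLOC_030709 it was -1.31 ± 0.21 (limma adjusted p = 0.000127), the fall being greater in K6. TEA010054.1 also rose in both, with 2.84 ± 0.20 (limma adjusted p = 1.05e-07), as YH9 held 8.72 to 14.66 FPKM of it.

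XLOC_025363 (8.16; limma adjusted p = 4.88e-11) and XLOC_033375 (7.52; limma adjusted p = 4.58e-11) rose in K6 over QX1 and fell in K11 against YH9.

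The remaining 7 were called in K6 against QX1 and not in K11 against YH9. Those high in QX1 were TEA030850.1 (-7.74; limma adjusted p = 5.74e-11), TEA014508.1 (-7.04; limma adjusted p = 2.59e-09), XLOC_062244 (-7.42; limma adjusted p = 1.5e-10), XLOC_057070 (-5.09; limma adjusted p = 4.95e-10) and XLOC_059266 (-4.58; limma adjusted p = 4.15e-09). Those high in K6 were XLOC_037045 (4.47; limma adjusted p = 1.15e-07) and XLOC_047106 (4.87; limma adjusted p = 5.56e-06).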

How the results depend on the processing

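The 5 FPKM filter tests fewer features and left 1673 calls in place of 3309 (855 higher and 818 lower in K6; 1133 annotated and 540 unannotated). Every other setting kept these counts within 1.5 times: 4187 calls with a pseudocount of 0.1, 3531 without a filter, 3309 with quantile and 3321 with TMM scaling, 3349 in the fit over all 12 libraries, 3306 with a plain prior and 3234 to 3461 without each library in turn. Replicate numbers did not pair the libraries (correlations of deviations -0.005, 0.059 and 0.044), and the replicate block gave 3314 calls. It moved no count by over 1.5 times. No called feature changed sign under any of these settings, and each of the 12 named features kept its call under every setting run. Their sizes moved, most with a pseudocount of 0.1: over the settings the log2 difference ran from 7.49 to 9.11 for TEA009099.1, 7.03 to 9.97 for TEA010054.1, -9.57 to -6.62 for TEA014508.1, 4.55 to 7.54 for XLOC_025363, 4.36 to 4.72 for XLOC_033375, -10.31 to -7.22 for XLOC_062244 and -6.97 to -5.11 for XLOC_030709.

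On/off features present in K6 numbered 205 with presence at 0.5 FPKM and 26 at 5 FPKM, against 131 as reported, and those present in QX1 numbered 28 at 5 FPKM, against 171. Without 1 library they numbered 154 to 191 and 187 to 234. Features called the same way in both pairs numbered 882 with a pseudocount of 0.1 and 285 with the 5 FPKM filter, against 563; opposite calls numbered 1035 and 378, against 650. Near pairs called the same way numbered 40 under 1 kb, against 66 under 10 kb; opposite pairs numbered 2 under 1 kb and 11 under 20 kb, against 7. Without 1 library the opposite pairs numbered 4 to 8, the 4 without QX1 replicate 2. The pair counts and their settings were added after the data were seen. Depth was not varied, and at these depths a 0 and a low level cannot be told apart.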
